A study of Mus musculus with 12 samples.

Results

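The nuclear genes of oxidative phosphorylation (OXPHOS) subunits carried 77 peaks of trimethylated histone H3 lysine 4 (H3K4me3) out of 15848 peaks mapped in nuclei of cardiomyocytes (CMs) from adult mice. A peak was taken where it lies on an autosome, is assigned to a protein-coding gene and carries a name that starts with Ndufa, Ndufb, Ndufc, Ndufs, Ndufv, Uqcr, Cox4, Cox5, Cox6, Cox7, Cox8 or Atp5, or the name *Sdha*, *Sdhb*, *Sdhc*, *Sdhd*, *Cyc1* or *Cycs*. These 77 peaks stand for 76 genes, since *Sdhb* has 2 peaks. The names also bring in 6 genes of the Ndufaf family, which help to assemble complex I but are not part of it, and *Atp5sl*, also known as *Dmac2*, a complex I assembly factor and no subunit of ATP synthase. H3K4me3 was measured by chromatin immunoprecipitation and sequencing in 3 CtrlCre and 3 Cpt1bcKO libraries. Cpt1bcKO mice lack *Cpt1b*, whose product carries out the step by which long-chain fatty acids enter muscle mitochondria, in CMs, where the αMHC promoter drives Cre and removes exons 10 and 11. CtrlCre mice carry the same Cre without the floxed gene, and all mice were adults on a C57BL/6 background with littermate controls, with no sex or exact age given. Nuclei were sorted from ventricles with an antibody to PCM1, which marks CM nuclei. 6 input libraries are listed too, but without columns in the table, and were compared with nothing.

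OXPHOS is the process by which the inner mitochondrial membrane turns the oxidation of fuel into ATP. Complexes I and II pass electrons to coenzyme Q, complex III passes them to cytochrome c, and complex IV hands them to oxygen, while complex V, the ATP synthase, uses the resulting proton gradient. The beating heart is among the tissues richest in mitochondria, and it draws much of its ATP from fatty acids, whose breakdown feeds these complexes. A few subunits have a separate form for heart and skeletal muscle, and H3K4me3 is a mark of the start of active genes.

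The libraries held between 763133 counts in peaks (CtrlCre replicate 2) and 2766416 (Cpt1bcKO replicate 2), and the correlation of log2 values between libraries ran from 0.91 to 0.97. All values below are counts that the authors divided by size factors, called normalized counts here, or these per kilobase (kb) of peak width, and a gain or loss of H3K4me3 shared by all peaks cannot be seen in them. The paper reports a reduced level of H3K4me3 in western blots of sorted CM nuclei of Cpt1bcKO mice. The differences below are therefore relative to the level that the peaks share. The 11 CM marker genes fixed for a check of cell identity all had a peak, with summed normalized counts of 9314 to 11270 in CtrlCre and 7300 to 10204 in Cpt1bcKO libraries. Of 8 endothelial, 8 fibroblast, 8 leukocyte and 6 mural markers, 1, 1, 0 and 4 had one, with sums of 39 to 91, 58 to 69, 0 and 109 to 163 in CtrlCre, against 31 to 51, 56 to 63, 0 and 54 to 108 in Cpt1bcKO. Those with a peak were *Kdr* (endothelial), *Pdgfra* (fibroblast), and *Myh11*, *Cnn1*, *Kcnj8* and *Cspg4* (mural). Among those without were *Pecam1*, *Cdh5*, *Col1a1*, *Dcn*, *Ptprc*, *Csf1r*, *Pdgfrb* and *Rgs5*. Of the 12 CM marker peaks, 4 were lower in Cpt1bcKO at an unadjusted p under 0.05 in limma and 0 higher, against 6.98% and 5.84% of all tested peaks. None passed the adjusted test, and their median log2 difference was -0.20. By this rule 1 endothelial and 1 mural peak were also lower. The paper reports reduced H3K4me3 in these mice mainly at CM identity genes, so the CM sums cannot separate cell share from genotype. The part of other cells in the results below was not tested. The peak of *Cpt1b* itself ends before exon 10, so it does not check the deletion, and its value was higher in Cpt1bcKO (572, 689 and 568) than in CtrlCre nuclei (428, 407 and 436), a log2 difference of 0.52 with a standard error (SE) of 0.10 (limma, adjusted p = 0.00357).

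The promoters of a few members show what the mark sits on, and are given here because the results below turn on these genes. They were read from the RefSeq promoter table of GRCm38.p6, the build of the files, which matched 63 of the 76 genes. Each runs from 250 bases before the annotated start to 30 bases after it, 5′ to 3′, with capitals for exact matches to the 8 motifs searched. *Cycs* encodes cytochrome c, the carrier between complexes III and IV. *Atp5g1*, *Atp5g2* and *Atp5g3* encode the same mature c subunit of the rotating ring of ATP synthase, and *Atp5e* encodes the epsilon subunit of its central stalk. *Cox7a1* and *Cox8b* are the heart and muscle forms of complex IV subunits whose other forms are *Cox7a2* and *Cox8a*.
Cycs, chr6:50566540-50566819, minus strand: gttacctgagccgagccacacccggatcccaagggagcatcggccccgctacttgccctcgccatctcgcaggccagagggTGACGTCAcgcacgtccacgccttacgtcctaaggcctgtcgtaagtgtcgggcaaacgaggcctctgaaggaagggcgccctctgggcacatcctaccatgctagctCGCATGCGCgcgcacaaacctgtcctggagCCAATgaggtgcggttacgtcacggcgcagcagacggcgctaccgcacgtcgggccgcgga
Atp5g1, chr11:96075602-96075881, minus strand: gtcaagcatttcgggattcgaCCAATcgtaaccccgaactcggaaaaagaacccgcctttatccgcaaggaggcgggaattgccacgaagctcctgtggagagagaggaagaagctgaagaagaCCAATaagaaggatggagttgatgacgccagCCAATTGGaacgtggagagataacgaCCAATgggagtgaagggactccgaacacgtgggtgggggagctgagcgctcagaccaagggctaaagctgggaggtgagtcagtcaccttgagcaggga
Atp5g2, chr15:102671018-102671297, minus strand: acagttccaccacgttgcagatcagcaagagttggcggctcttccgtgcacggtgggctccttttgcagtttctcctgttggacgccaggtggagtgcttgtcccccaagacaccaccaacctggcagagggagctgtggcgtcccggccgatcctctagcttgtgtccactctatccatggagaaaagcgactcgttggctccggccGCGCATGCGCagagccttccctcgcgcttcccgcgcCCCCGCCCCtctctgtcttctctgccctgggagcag
Atp5g3, chr2:73911297-73911576, minus strand: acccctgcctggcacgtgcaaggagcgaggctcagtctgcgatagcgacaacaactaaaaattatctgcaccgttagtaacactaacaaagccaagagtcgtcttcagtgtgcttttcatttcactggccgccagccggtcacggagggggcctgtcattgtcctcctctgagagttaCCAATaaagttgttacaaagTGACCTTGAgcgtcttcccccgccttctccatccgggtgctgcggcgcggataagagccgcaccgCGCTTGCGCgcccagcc
Atp5e, chr2:174464072-174464351, minus strand: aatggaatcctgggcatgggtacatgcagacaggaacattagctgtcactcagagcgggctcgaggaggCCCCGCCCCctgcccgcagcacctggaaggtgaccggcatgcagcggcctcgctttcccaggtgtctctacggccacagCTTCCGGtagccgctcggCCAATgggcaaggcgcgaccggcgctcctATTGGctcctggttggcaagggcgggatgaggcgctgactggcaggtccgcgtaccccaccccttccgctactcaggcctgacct
Cox7a1, chr7:30183921-30184200, plus strand: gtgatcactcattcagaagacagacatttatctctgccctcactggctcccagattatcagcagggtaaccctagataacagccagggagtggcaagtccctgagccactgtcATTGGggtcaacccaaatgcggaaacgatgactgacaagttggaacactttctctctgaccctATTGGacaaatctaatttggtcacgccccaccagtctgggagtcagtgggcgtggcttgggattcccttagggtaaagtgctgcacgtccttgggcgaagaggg
Cox7a2, chr9:79759824-79760103, minus strand: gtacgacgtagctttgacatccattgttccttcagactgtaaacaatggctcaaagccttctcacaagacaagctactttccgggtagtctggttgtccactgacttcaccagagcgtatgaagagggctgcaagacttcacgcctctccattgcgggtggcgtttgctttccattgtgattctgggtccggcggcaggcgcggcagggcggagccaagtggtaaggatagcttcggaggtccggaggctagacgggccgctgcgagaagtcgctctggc
Cox8a, chr19:7217587-7217866, minus strand: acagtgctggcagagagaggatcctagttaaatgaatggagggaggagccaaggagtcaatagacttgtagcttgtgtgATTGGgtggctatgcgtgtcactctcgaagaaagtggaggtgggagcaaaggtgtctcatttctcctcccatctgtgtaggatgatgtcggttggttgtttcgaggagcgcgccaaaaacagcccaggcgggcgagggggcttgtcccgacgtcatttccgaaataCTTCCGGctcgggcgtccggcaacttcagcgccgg
Cox8b, chr7:140900417-140900696, minus strand: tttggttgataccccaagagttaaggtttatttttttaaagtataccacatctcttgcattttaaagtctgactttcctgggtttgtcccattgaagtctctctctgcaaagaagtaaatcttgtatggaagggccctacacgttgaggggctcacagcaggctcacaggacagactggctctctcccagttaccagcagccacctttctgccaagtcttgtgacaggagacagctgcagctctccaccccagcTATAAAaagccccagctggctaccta
The capitals mark, in *Cycs*, a cyclic AMP response element (CRE), a site of nuclear respiratory factor 1 (NRF1) and a CCAAT box in this order. *Atp5g2* holds 2 overlapping matches to NRF1 and 1 to the GC-rich SP/KLF motif, *Atp5g3* a CCAAT box, a site of estrogen-related receptors (ERR) and a match to NRF1, and *Atp5g1* 5 CCAAT matches, so that the 3 genes for 1 protein share no full set of these letters. *Atp5e* holds an SP/KLF, an ETS and 2 CCAAT matches. *Cox8a* holds a CCAAT box and an ETS match, *Cox8b* a TATA box that begins 4 bases after the annotated start, *Cox7a1* 2 CCAAT boxes, and *Cox7a2* none.

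OXPHOS peaks were dense and wide. Their median was 91.0 normalized counts per kb over the 6 libraries, against 70.0 for the 11286 peaks of autosomal protein-coding genes, and 62 of 77 lay above the median of the latter. The median width was 2391 bp against 1621 bp, and 41 of 77 peaks lay above the 75th and 5 under the 25th percentile of these widths. The extra width lay downstream of the start. Among the 73 peaks that hold the start of their own gene the median reach was 565 bp upstream and 1835 bp downstream, against 542 bp and 1071 bp for coding peaks that hold their gene's start. OXPHOS genes are short, with a median of 7205 bp against 25450 bp, and the median share of the gene under the peak was 31.2% against 4.26%. *Cox6a1*, *Cox6a2*, *Cox8a*, *Cox8b*, *Atp5g3*, *Atp5h* and *Atp5i* had at least 90% of their length under the peak.

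**Figure D1:**
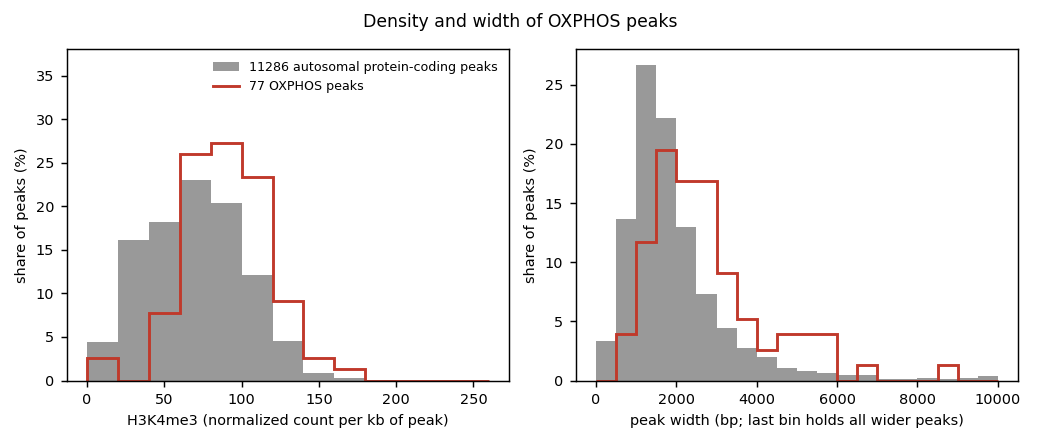
Share of peaks (%) by H3K4me3 density (normalized count per kb of peak, left) and by width (bp, right). The red line, for 77 OXPHOS peaks with medians of 91.0 per kb and 2391 bp, lies to the right of the grey bars for 11286 autosomal protein-coding peaks with medians of 70.0 per kb and 1621 bp.

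The genes of mitochondrial ribosomal proteins, which make the mitochondrially encoded subunits of the same complexes, had 66 peaks of higher median density (108 per kb) and lower median width (1483 bp). The 78 peaks of cytosolic ribosomal protein genes had medians of 97.5 per kb and 1845 bp. No peak of the first and 2 of the second were wider than 5000 bp, against 8 OXPHOS peaks (10.4%) and 3.62% of autosomal coding peaks. These 8 were *Atp5h* (8940 bp), *Atp5c1* (6837 bp), *Cox5a* (5884 bp), *Atp5b* (5839 bp), *Cox4i1* (5751 bp), *Atp5a1* (5459 bp), *Uqcrh* (5261 bp) and *Sdhd* (5022 bp). 6 of them also hold the start of a neighbouring gene, and *Cox5a* and *Atp5b*, the latter the catalytic beta subunit of ATP synthase, hold their own start alone. That is 6 of 21 OXPHOS peaks with starts of other genes (28.6%) and 2 of 52 with their own start alone (3.85%).

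Sharing was common. 21 peaks held their own gene's start and that of at least 1 other protein-coding gene, as in *Sdhd* with *Timm8b*, *Ndufs1* with *Eef1b2*, *Ndufaf5* with *Esf1* and *Cox4i1* with *Emc8*. Starts of at least 2 such genes lay in 27.3% of OXPHOS peaks and in 11.0% of all autosomal coding peaks. H3K4me3 of these peaks cannot be assigned to 1 of the genes. A further 13 autosomal genes that match the name rule had their start in a peak named for a neighbour and were not counted as members, among them *Ndufs3*, *Ndufb5*, *Ndufb10*, *Atp5f1*, *Atp5j*, *Uqcrb* and *Uqcr11*. Of these, *Atp5j* shares its peak with *Gabpa*, the gene of an ETS factor known to act on OXPHOS promoters. *Atp5mpl* has a peak under its older name *Mp68*, *Cox7b* and *Ndufa1* are X-linked, and *Cox4i2*, *Cox7b2* and *Cox8c* had no peak at their start.

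4 member peaks do not hold the start of the gene they are named for. That of *Ndufa4l2*, a relative of *Ndufa4* known as a hypoxia-induced gene, lies 1650 bp upstream of the gene, the second *Sdhb* peak 3173 bp upstream, and the *Ndufs6* peak 2386 bp upstream, over a start of *Mrpl36*. The peak of *Cox6b2*, known as the testis form of its subunit, begins 476 bp inside the gene. *Ndufa4l2* and *Cox6b2* had the lowest densities of all members, with 14.0 and 19.9 per kb.

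Between the genotypes, a smaller share of OXPHOS peaks than of all peaks passed each threshold. None of the 77 peaks passed an adjusted p of 0.05 in limma, where 2.93% of all 15039 tested peaks did, and 2 of 77 (2.597%) had an unadjusted p under 0.05, against 12.8% of all tested peaks. Both were lower in Cpt1bcKO nuclei, where 6.98% of all peaks were lower and 5.84% higher by this rule. With a correction for GC content the split was 3 higher (*Cox6b1*, *Ndufa4* and *Ndufa5*) and 1 lower (*Atp5g2*), and none of these passed the adjusted test. All 77 peaks passed the filter on low values. Their median log2 difference, Cpt1bcKO minus CtrlCre, was 0.0085, and that of all tested peaks was 0.0057. 41 peaks had a positive and 36 a negative difference, from -0.32 for *Atp5g2* to 0.23 for *Cox6b2*. The 3 values of each genotype did not overlap at 6 peaks (7.79%), against 16.3% of all tested peaks.

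The differences, which are relative to the level that the peaks share, were also bounded. The 95% interval of the log2 difference stayed within 0.5 in either direction for 71 of 77 peaks (92.2%), against 53.6% of all tested peaks and 65.2% of autosomal coding peaks. The share was 86.4% for peaks of mitochondrial and 79.5% for peaks of cytosolic ribosomal protein genes, so it is not particular to OXPHOS genes. The SE was smaller than for most peaks, with a median of 0.107 against 0.145, at a median value of 232 normalized counts against 95.3. The widest intervals were those of *Cox6b2* (-0.68 to 1.14) and *Ndufa4l2* (-0.55 to 0.95), 2 of the 4 peaks off their gene's start.

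**Figure D2:**
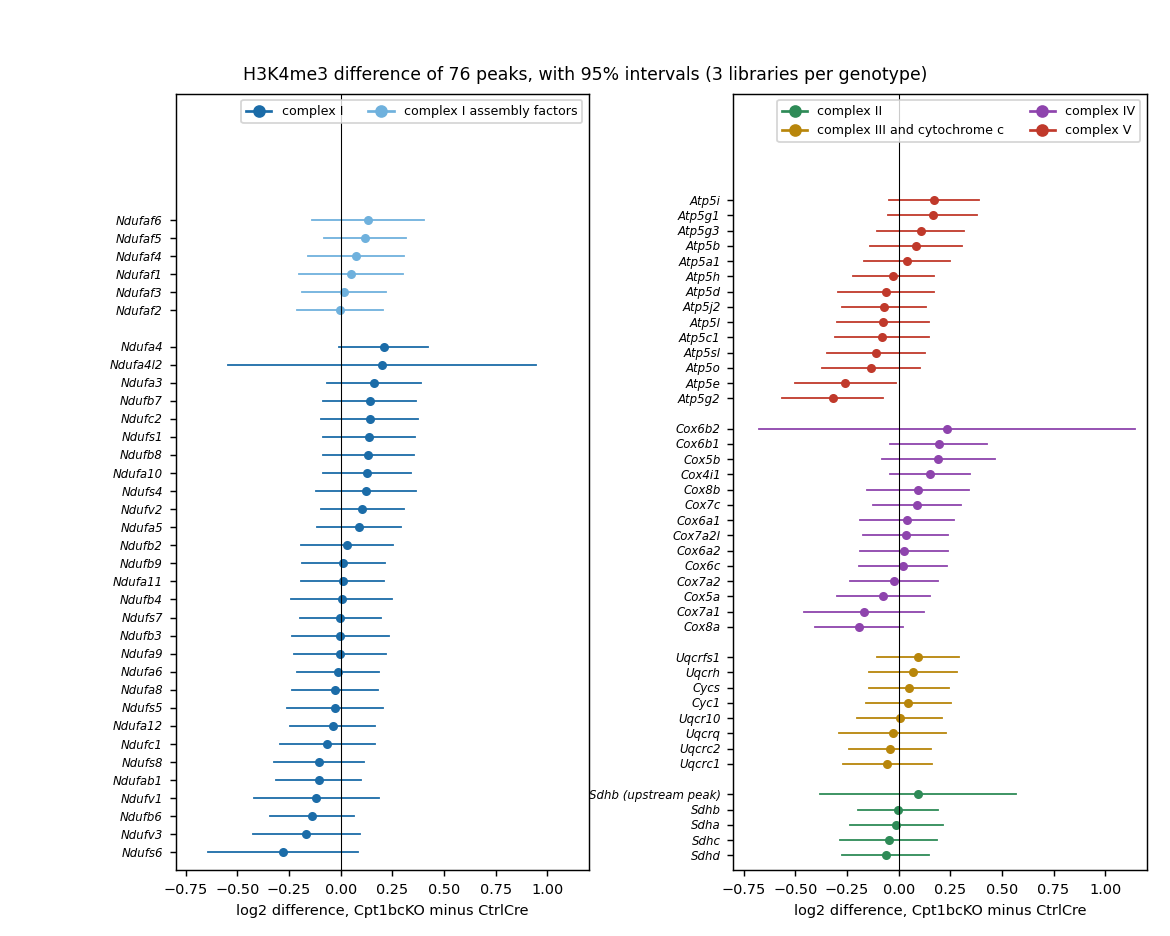
Log2 difference of normalized count, Cpt1bcKO minus CtrlCre (x axis), of 76 of the 77 peaks by complex, with points for the limma estimate and bars for its 95% interval (3 libraries per genotype). The intervals of *Atp5g2* and *Atp5e*, at the bottom of complex V, lie under 0, and those of the other peaks drawn include 0.

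Complex I, the entry point of electrons from NADH, had 30 peaks with a median difference of 0.0014, 15 of them positive and 15 negative. Among core subunits, *Ndufs1*, *Ndufs7*, *Ndufs8*, *Ndufv1* and *Ndufv2* overlapped between the genotypes. *Ndufs7* had 293, 256 and 277 normalized counts in CtrlCre and 274, 283 and 267 in Cpt1bcKO libraries. *Ndufs1*, the largest core subunit, had 317, 256 and 305 against 339, 346 and 280, a difference of 0.14 (SE 0.11). *Ndufc1*, an accessory subunit, had the highest density of all members with 166 per kb (201, 195 and 194 normalized counts against 219, 185 and 164). *Ndufa4l2*, with the lowest, had 17, 14 and 21 against 19, 17 and 24.

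3 further peaks with complex I names are given after their values were seen. *Ndufa4*, named for complex I but now placed in complex IV, had 327, 281 and 336 normalized counts in CtrlCre and 372, 398 and 322 in Cpt1bcKO libraries. Its difference of 0.21 (SE 0.10, adjusted p = 0.412) was the largest positive one among the peaks that hold their gene's start, and 1 Cpt1bcKO library lay within the CtrlCre range. The *Ndufa4* peak also holds the start of *Phf14*. *Ndufa3* had 146, 135 and 132 against 154, 159 and 149 without overlap, a difference of 0.16 (SE 0.11, adjusted p = 0.601). The peak named *Ndufs6* had 71, 72 and 68 against 64, 59 and 51, also without overlap (-0.28, SE 0.18, adjusted p = 0.560), and it holds the start of *Mrpl36* and not that of *Ndufs6*.

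The 6 Ndufaf peaks had a median difference of 0.062, with 5 positive and none past an unadjusted p of 0.05. *Ndufaf5*, at the highest density of the family (142 per kb), had 269, 281 and 268 normalized counts against 309, 310 and 271, with overlap through 1 library. *Ndufaf3*, at the lowest (68.6 per kb), had 313, 272 and 326 against 298, 324 and 296. Both peaks are shared, with *Esf1* and *Dalrd3*.

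Complex II, the succinate dehydrogenase of the citric acid cycle, has 4 subunits, all encoded in the nucleus, and 5 peaks with a median difference of -0.012. The flavoprotein gene *Sdha* had 256, 205 and 250 normalized counts in CtrlCre and 227, 261 and 216 in Cpt1bcKO libraries. The main peak of the iron-sulfur gene *Sdhb* had 297, 284 and 307 against 293, 311 and 283. The membrane anchors *Sdhc* (215, 179 and 216 against 216, 205 and 170) and *Sdhd* (491, 442 and 514 against 438, 515 and 434) had the lowest and the highest density, 63.8 and 94.1 per kb. In all 4 the genotypes overlapped.

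Complex III and cytochrome c had differences from -0.056 (*Uqcrc1*) to 0.095 (*Uqcrfs1*) over 8 peaks and a median of 0.026. They had the highest median density among the complexes, 118 per kb. *Cyc1*, for cytochrome c1, led with 138 per kb and had 265, 263 and 255 normalized counts against 303, 254 and 255. *Cycs* had 305, 295 and 285 against 311, 316 and 290. The Rieske protein gene *Uqcrfs1* had 318, 330 and 308 against 362, 351 and 310. *Uqcrq*, a small subunit at the lowest density (85.9 per kb), had 178, 158 and 210 against 187, 201 and 148. In each of these 4 peaks at least 1 Cpt1bcKO library lay within the CtrlCre range or under it.

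Complex IV, cytochrome c oxidase, had 14 peaks, 10 positive and 4 negative, with a median difference of 0.037. *Cox6c* had the highest density (131 per kb), with 262, 258 and 261 normalized counts against 278, 289 and 229. Its isoform genes allow the heart and muscle forms to be set beside the widely expressed ones. Per kb, and over the 6 libraries, the muscle form *Cox8b* (111 per kb, range 93.1 to 124) lay above *Cox8a* (66.0 per kb, range 59.3 to 76.0) in every library. The muscle form *Cox6a2* (84.7 per kb, range 73.5 to 92.9) also lay above *Cox6a1* (70.1 per kb, range 61.6 to 83.2) in 6 of 6 libraries, though the ranges overlapped. The *Cox6a2* peak also holds the start of *Itgad*. The order per kb was the other way for subunit 7a, again with overlapping ranges. The muscle form *Cox7a1* (67.8 per kb, range 51.3 to 84.7) was under *Cox7a2* (91.0 per kb, range 79.5 to 102) in 6 of 6 libraries. Peak widths differed, with 1644 bp for *Cox8b*, 2987 bp for *Cox8a*, 3088 bp for *Cox6a2* and 3797 bp for *Cox6a1*. Without division by width the mean was 183 normalized counts for *Cox8b* against 197 for *Cox8a*, and 262 for *Cox6a2* against 266 for *Cox6a1*. For subunit 7a the order stayed, with 132 for *Cox7a1* against 253 for *Cox7a2*. *Cox7a2l*, which is known for its part in joining complexes III and IV, had 101 per kb (range 88.7 to 107) and lay above *Cox7a2* in 5 of 6. *Cox6b1* (89.0 per kb, range 75.0 to 102) and the testis form *Cox6b2* (19.9 per kb, range 10.1 to 32.8) were apart, and the latter's peak misses the gene's start.

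**Figure D3:**
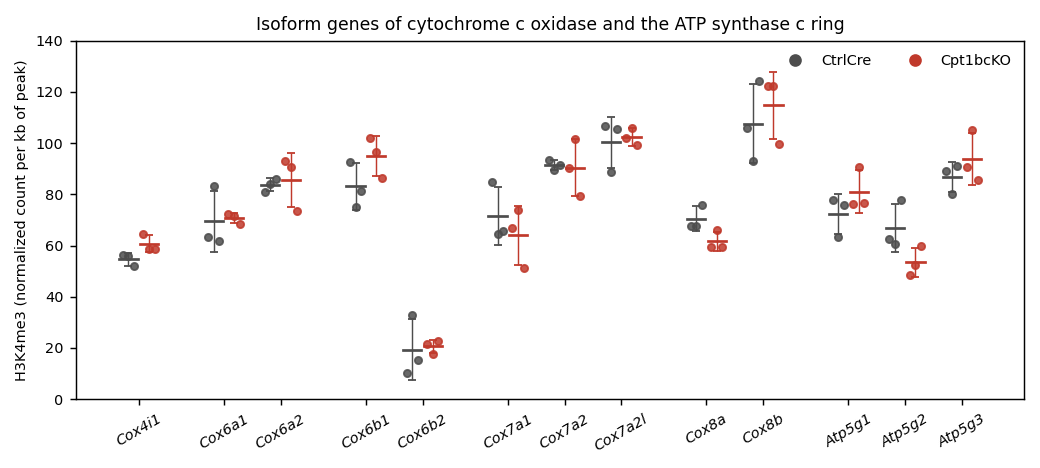
H3K4me3 density (normalized count per kb of peak, y axis) of isoform genes, with a point for each library, a bar for the mean and whiskers of 1 SD (n = 3 per genotype). *Cox8b* lies at 93.1 to 124 per kb, above *Cox8a* at 59.3 to 76.0, and *Cox6b2* lies at 10.1 to 32.8, under all others.

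None of these isoform peaks passed the adjusted test between genotypes. *Cox8b* had 174, 153 and 204 normalized counts in CtrlCre and 201, 201 and 164 in Cpt1bcKO libraries, a difference of 0.10 (SE 0.12). *Cox6a2* had 250, 260 and 266 against 287, 280 and 227 (0.026, SE 0.10), and *Cox7a1* had 165, 126 and 128 against 130, 144 and 100 (-0.17, SE 0.14). All 3 overlapped. *Cox8a* had 202, 202 and 227 against 177, 197 and 178 and did not overlap, with a difference of -0.19 (SE 0.10) and an adjusted p of 0.451. *Cox4i1*, for the large nuclear subunit 4, had 323, 321 and 298 against 371, 338 and 338, also without overlap (0.15, SE 0.094, adjusted p = 0.550), in a peak it shares with *Emc8*. *Cox6a1* had 241, 316 and 234 against 274, 272 and 260, *Cox7a2* 260, 249 and 254 against 251, 282 and 221, *Cox7a2l* 304, 253 and 301 against 291, 302 and 283, and *Cox6b1* 172, 139 and 151 against 189, 179 and 160. *Cox6b2* had 8, 26 and 12 against 17, 14 and 18, where 3 reads correspond to between 1.95 and 6.97 normalized counts.

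Complex V, the ATP synthase, had 14 peaks by name, *Atp5sl* included, 5 positive and 9 negative, with a median difference of -0.067. Both member peaks with an unadjusted p under 0.05 were among these, 2 of 14, beside 12.8% of all tested peaks. *Atp5g2* had 182, 177 and 227 normalized counts in CtrlCre and 141, 153 and 174 in Cpt1bcKO libraries, so that every Cpt1bcKO value lay under every CtrlCre value. Its difference of -0.32 (SE 0.12, 95% interval -0.56 to -0.075, 0.802-fold) had an unadjusted p of 0.0128 in limma and an adjusted p of 0.197. *Atp5e* had 173, 167 and 182 against 124, 167 and 148, where 1 library of each genotype had the same value, and is named after its values were seen. Its difference was -0.26 (SE 0.12, 0.836-fold, unadjusted p = 0.0390 in limma, adjusted p = 0.349). Neither value passes the correction over all peaks. Both depended on single libraries. When each library was left out in turn, *Atp5g2* ran from -0.40 (without Cpt1bcKO replicate 3) to -0.21 (without CtrlCre replicate 3, unadjusted p = 0.113 in limma), and *Atp5e* from -0.36 (without Cpt1bcKO replicate 2) to -0.14 (without Cpt1bcKO replicate 1, unadjusted p = 0.258 in limma). *Atp5g2* was also lost without Cpt1bcKO replicate 1, and *Atp5e* without CtrlCre replicate 1, CtrlCre replicate 3 or Cpt1bcKO replicate 3 and with a correction for GC content (unadjusted p = 0.0521 in limma). Without Cpt1bcKO replicate 1 no OXPHOS peak had an unadjusted p under 0.05, without Cpt1bcKO replicate 2 there were 5, all lower (*Atp5e*, *Atp5g2*, *Atp5o*, *Cox5a* and *Cox8a*), and without CtrlCre replicate 3 there were 2 others (*Ndufa4*, higher, and *Ndufv3*, lower).

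The other genes of the c ring had positive differences. *Atp5g1* had 370, 302 and 361 normalized counts against 362, 431 and 364 (0.16, SE 0.10), and *Atp5g3* had 282, 253 and 287 against 286, 332 and 270 (0.11, SE 0.10), both with overlap. Per kb, *Atp5g3* (90.3, range 80.1 to 105) was above *Atp5g1* (76.7, range 63.5 to 90.6) and above *Atp5g2* (60.2, range 48.3 to 77.8) in 6 of 6 libraries, and *Atp5g1* was above *Atp5g2* in 5 of 6. The ranges of *Atp5g1* overlapped those of both others. The peaks are 4758 bp (*Atp5g1*), 3158 bp (*Atp5g3*) and 2917 bp (*Atp5g2*) wide. Without division by width *Atp5g1* was highest, with a mean of 365 normalized counts against 285 for *Atp5g3* and 176 for *Atp5g2*. *Atp5i*, for the e subunit, had 156, 174 and 158 against 192, 183 and 175 without overlap (0.17, SE 0.10, adjusted p = 0.536). *Atp5l*, for the g subunit, had the highest density of the complex (115 per kb), with 329, 318 and 380 against 341, 358 and 278. *Atp5d*, for the delta subunit, had the lowest (42.3 per kb), with 163, 186 and 195 against 166, 196 and 160.

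In some libraries most OXPHOS peaks deviated in the same direction. The median member lay 0.090 above its own mean log2 value in Cpt1bcKO replicate 2 and 0.089 below it in Cpt1bcKO replicate 3, 0.052 below in CtrlCre replicate 2, and within 0.022 of it in the other 3 libraries, while the median of all tested peaks lay between 0.0047 and 0.0078 in every library. Cpt1bcKO replicate 2 was above replicate 3 at 68 of 77 peaks, against 49.2% of all tested peaks. Cpt1bcKO replicate 3 also had the lowest summed CM markers, 7300 normalized counts, and CtrlCre replicate 2 the lowest depth, and the part of either in this pattern was not tested. Without Cpt1bcKO replicate 3 the median difference of the members was 0.063, and without Cpt1bcKO replicate 2 it was -0.036.

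**Figure D4:**
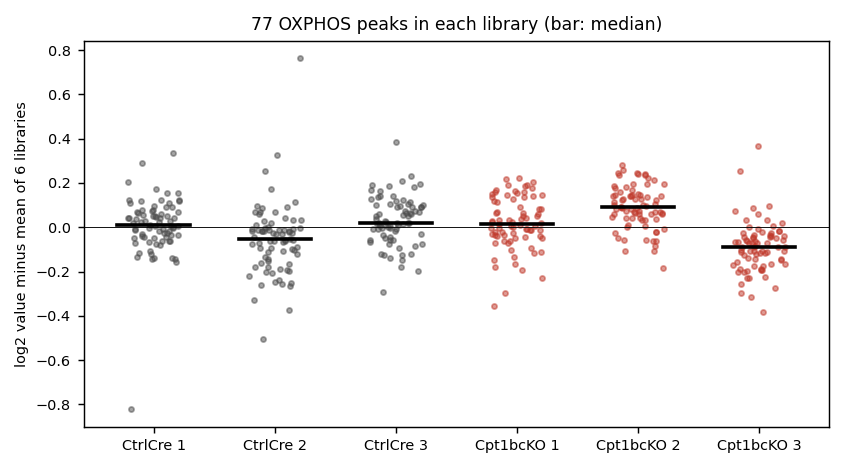
Log2 value of each of the 77 OXPHOS peaks minus its mean over the 6 libraries (y axis), by library, with black bars for the median. The median is 0.090 in Cpt1bcKO 2 and -0.089 in Cpt1bcKO 3, and between -0.052 and 0.021 in the other 4.

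Genes that build or feed the complexes were read from lists, and their counts stand beside the 12.8% of all tested peaks with an unadjusted p under 0.05. Of 45 tested peaks of assembly factors, the Ndufaf genes included, none passed an adjusted p of 0.05 and 2 had an unadjusted p under 0.05, both higher. These were *Uqcc3*, for a complex III assembly factor, with 138, 114 and 129 normalized counts in CtrlCre and 158, 159 and 155 in Cpt1bcKO libraries (0.31, SE 0.11, adjusted p = 0.195), and *Tmem186*, for a complex I assembly factor, with 255, 219 and 246 against 313, 273 and 270 (0.25, SE 0.10, adjusted p = 0.266). Of 12 peaks of coenzyme Q synthesis, none passed the adjusted test and 1, *Coq5*, had an unadjusted p under 0.05 (155, 128 and 153 against 192, 172 and 166, 0.28, SE 0.11, adjusted p = 0.261). These 3 genes did not overlap between the genotypes, but without CtrlCre replicate 2 none of them had an unadjusted p under 0.05. *Coq5* and *Tmem186* were also lost without Cpt1bcKO replicate 1, and with limma voom on recovered counts the single coenzyme Q call was *Coq8a*, lower. Of 13 tested peaks of mitochondrial DNA expression, none passed either test, and *Tfam*, which packages mitochondrial DNA, had 173, 160 and 163 against 156, 182 and 188. The 3 medians were 0.051, 0.063 and 0.015, beside 0.0057 for all tested peaks.

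Among families read for comparison, 0 of 66 peaks of mitochondrial ribosomal protein genes had an unadjusted p under 0.05, with a median difference of 0.0081. Of 78 peaks of cytosolic ribosomal protein genes, 13 were higher and 1 was lower by this rule, against 5.84% and 6.98% of all tested peaks, and the median was 0.11. The lower one was *Rpl3l*, a form of striated muscle (99, 102 and 137 normalized counts against 40, 52 and 23). Its difference was -1.59 (SE 0.23, adjusted p = 0.000177 in limma), and it was the only peak of both ribosomal families to pass the adjusted test. 2 of these peaks are shared with OXPHOS genes that were not counted as members. The *Rps28* peak holds the start of *Ndufa7* and had 156, 130 and 151 against 176, 187 and 158, without overlap (0.25, SE 0.11, adjusted p = 0.335). The *Rps2* peak holds the start of *Ndufb10* and had 443, 446 and 484 against 468, 512 and 435. No other of the 13 neighbour-named peaks had an unadjusted p under 0.05. The X-linked *Ndufa1*, an accessory subunit of complex I, had 145, 107 and 111 against 128, 166 and 152 (0.30, SE 0.13, unadjusted p = 0.0359 in limma, adjusted p = 0.334).

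The promoters of OXPHOS genes were then searched on both strands for 8 motifs in the window of 250 bases before to 50 bases after the start. NRF1, a factor named for its sites in the cytochrome c gene, was searched as GCGCANGCG and matched in 21 of 63 promoters (33.3%, Wilson 95% interval 22.9% to 45.6%), against 15.2% of 8264 genes with an autosomal coding peak and 9.63% of 17492 protein-coding genes. YY1, searched as AAGATGGCG, matched in 7 (11.1%) against 3.48% and 2.14%. ERR, searched as TCAAGGTCA, matched in 2, *Atp5g3* and *Sdhd* (3.17%), against 0.327% and 0.377%. The ETS motif of GABPA, CCGGAAG, matched in 14 (22.2%) against 19.2% and 12.9%. The SP/KLF motif GGGGCGGGG matched in 10 (15.9%) against 26.6% and 17.3%, CCAAT in 30 (47.6%) against 42.2% and 42.3%, the CRE letters TGACGTCA in 5 (7.94%) against 3.82% and 2.54%, and the TATA box letters TATAAA in 5 (7.94%) against 8.18% and 14.8%. The motifs do not contain each other, and a match is a description of letters.

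**Figure D5:**
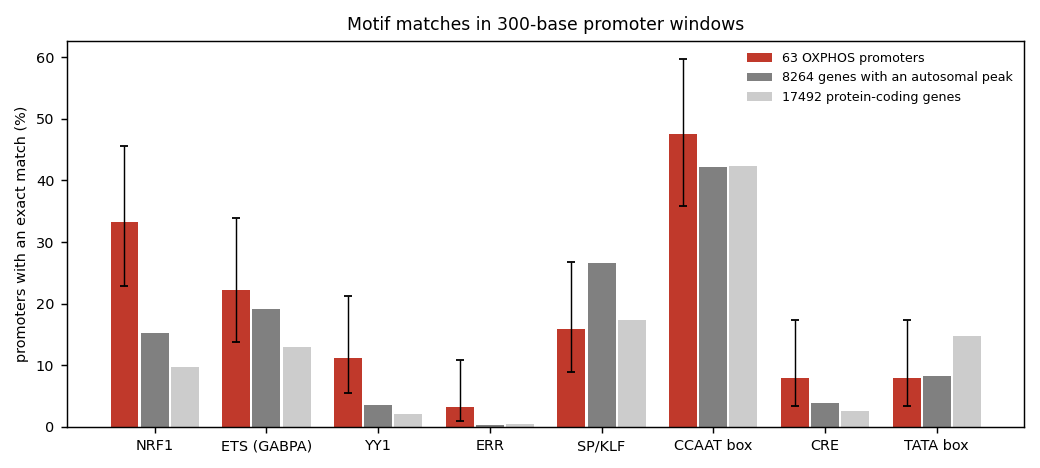
Share of promoters (%) with an exact match to each motif, for 63 OXPHOS promoters (red, with Wilson 95% intervals), 8264 genes with an autosomal coding peak (dark grey) and 17492 protein-coding genes (light grey). NRF1 stands at 33.3% against 15.2% and 9.63%, and SP/KLF at 15.9% against 26.6% and 17.3%.

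NRF1 matches fell in every complex. They were in 7 of 26 complex I promoters searched (*Ndufa5*, *Ndufa6*, *Ndufa8*, *Ndufa11*, *Ndufb4*, *Ndufs5* and *Ndufs6*), in 2 of 5 Ndufaf promoters (*Ndufaf4* and *Ndufaf5*) and in 7 of 13 complex V promoters (*Atp5c1*, *Atp5g2*, *Atp5g3*, *Atp5h*, *Atp5i*, *Atp5l* and *Atp5o*). They were also in 2 of 3 of complex II (*Sdha* and *Sdhd*), in 2 of 5 of complex III and cytochrome c (*Cycs* and *Uqcrc1*) and in 1 of 11 of complex IV (*Cox6a1*). Both *Atp5g2*, the lowest difference of all members, and *Atp5i* and *Atp5g3*, which had positive ones, carried the match. YY1 matched in *Atp5j2*, *Atp5sl*, *Ndufa9*, *Ndufc1*, *Ndufs4*, *Ndufs6* and *Ndufs7*. 36 of 63 promoters had NRF1, ETS or YY1, 5 had both NRF1 and ETS (*Atp5h*, *Atp5i*, *Atp5l*, *Cox6a1* and *Sdhd*), and 12 had none of the 8 motifs, among them *Cox5a*, *Cox5b*, *Cox7a2*, *Cox7c* and *Ndufv1*. Among the promoters not analysed here were those of *Atp5a1*, *Cox4i1*, *Cox6a2*, *Cox6c*, *Cyc1*, *Ndufa4l2*, *Ndufaf6*, *Ndufb9*, *Ndufs1*, *Sdhc*, *Uqcrc2* and *Uqcrq*.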

How the data were processed

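H3K4me3 ChIP–seq libraries of 3 CtrlCre and 3 Cpt1bcKO samples were compared. Per the study's methods, the authors trimmed reads with Trimmomatic 0.39, aligned them to mm10 with STAR 2.6.1d, removed duplicates with Picard 2.21.7, called peaks with MUSIC (false discovery rate 0.2), merged them and normalized counts in the union peaks with DESeq2 1.26.0. The deposited values per library are these counts divided by size factors and rounded, treated as a score. The authors' unrounded mean signal of each genotype was used to recover whole counts at 15848 of 15848 peaks. Genes were assigned by the authors through the nearest promoter within 5000 bases. The authors' log2 fold change, p-value and adjusted p-value columns were not used, nor was the fraction of the peak in the gene.

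log2(value + 1) of 15039 peaks with a mean of at least 10 was fitted with limma 3.58.1 in R 4.3.3 (empirical Bayes with a trend), with Benjamini-Hochberg adjustment over all of them. Fold changes are on this scale. The fit was tested on simulated data with changes larger than any of the member differences, so this test does not cover differences of their size. With 3 libraries per genotype that the labels do not tie to separate animals, p-values measure the spread between these libraries. Depth was 763133 to 2766416 counts in peaks, and intervals of shares cover counting error only. Genes named are those past the adjusted test, those with an unadjusted p under 0.05 and no overlap, the isoform pairs, the ends of density in each complex, and others where stated. Other genes are given as the core or best-known members of each complex, chosen with their values in view. The alternatives were other filters, pseudocounts and normalizations, a GC correction, a replicate block, limma voom on recovered counts and leaving out each library. 1 member peak enters all counts and medians but is not reported singly here. The members and lists were chosen with earlier results of these data known.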

Additional observations from a re-analysis of the deposited data

How the results depend on the processing

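No OXPHOS peak passed an adjusted p of 0.05 under any of the 16 alternatives fitted, and the lowest adjusted p of a member was 0.0967, without CtrlCre replicate 2. The count at an unadjusted p under 0.05, 2 in the reported fit, was 4 with quantile normalization, with cyclic loess normalization, with the GC correction and with the replicate block and GC correction (3 higher and 1 lower in both GC fits), and 0 to 5 when a library was left out. The median difference ran from -0.036 to 0.063 when a library was left out, and was 0.0014 for the 52 peaks with their own start alone, an alternative chosen after seeing the data. With the GC correction it was 0.035, against 0.022 for all tested peaks. It was -0.0033 with quantile normalization, -0.0077 with cyclic loess normalization and -0.0024 with voom. The median GC content was 50.5% for members and 56.5% for autosomal coding peaks. The replicate block alone gave 2 members and a median of 0.0085. With the mean of each genotype subtracted, same-numbered libraries had correlations of 0.0759, -0.0812 and 0.105 for replicates 1, 2 and 3. These low values show no strong shared deviation, but they cannot tell whether the samples were paired. Over all peaks the adjusted test called 441, and 229 to 431 when a library was left out.

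Assembly factors had 4 peaks under an unadjusted p of 0.05 with the GC correction and 0 to 4 when a library was left out, coenzyme Q synthesis 2 with cyclic loess normalization (1 of them lower), 1 lower one with voom, and 0 to 2, and mitochondrial DNA expression 0 to 1. The median percentile of members among autosomal coding peaks was 73.9 by normalized count per kb and 87.5 by normalized count without division by width. In the 100 bases before the start alone, a window that is shorter by construction, matches fell to 19.0% for NRF1 (8.77% of genes with an autosomal coding peak), 11.1% for ETS (10.3%), 1.59% for YY1 (0.557%), 3.17% for SP/KLF (17.5%), 31.7% for CCAAT (25.4%) and 1.59% for TATA (3.0%). ERR, with 1 promoter left, fell to 1.59% (0.0726%) and CRE to 4.76% (2.63%). Of the 25 genes whose differences were refitted singly (those of the naming rule and *Atp5e*), 13 changed sign when a library was left out, over *Cox6a1* -0.039 to 0.18, *Cox6b2* -0.12 to 0.67, *Cox7a2l* -0.051 to 0.081, *Cox8b* -0.0044 to 0.20, *Ndufaf3* -0.063 to 0.067, *Atp5l* -0.15 to 0.034, *Uqcrq* -0.13 to 0.10, *Cox6a2* -0.036 to 0.13, *Cox6c* -0.045 to 0.12, *Cyc1* -0.036 to 0.091, *Cox7a2* -0.11 to 0.065, *Ndufc1* -0.17 to 0.034 and *Sdhc* -0.14 to 0.055. With the GC correction, with or without the block, *Atp5l* was 0.075, *Cox7a2* 0.13, *Sdhc* 0.033 and *Sdhd* 0.015, and *Ndufaf3* was -0.0015 with cyclic loess normalization and -0.013 with voom. The cause of these shifts was not tested. Size factors hide a change shared by all peaks, and with 3 libraries per genotype the median 95% interval of a member was 0.44 wide.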
